A study of Mus musculus with 36 samples.

Results

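The 10 genes described here are known direct targets of the glucocorticoid receptor, taken by gene symbol: Tsc22d3, Fkbp5, Per1, Sgk1, Zbtb16, Klf9, Dusp1, Errfi1, Cdkn1a and Sult1a1. They are 10 of the 55492 entries of the count table, and all 10 passed the filter on low counts that left 20355 genes for testing. Their transcripts were counted in primary mouse cortical cells, dissociated at embryonic day 18 (C57EDCX, BrainBits) and grown in medium with B27, a supplement whose published formula includes the natural agonist corticosterone. From day in vitro 11 the cells received, for 72 h, fresh growth medium (control), 1 µM dexamethasone (DEX, a synthetic agonist of the receptor) or 1 µM DEX with 1 µM RU-486 (mifepristone, an antagonist of the same receptor), and the treatment was renewed at 48 h. Each group had 12 RNAseq libraries, 6 in each of the 2 batches that the labels name. The control medium is described without a solvent, and RU-486 was not given alone. The paper calls the 12 libraries of a group experimental replicates, but the sources do not say whether they came from separate animals or cultures. The p-values therefore measure the spread between these libraries, which may be technical.

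The glucocorticoid receptor waits in the cytoplasm in a complex with heat shock proteins and immunophilins. Once a glucocorticoid binds, it moves to the nucleus, pairs up on a palindromic DNA element and turns on genes, many of which restrain the hormone's own signal, growth factor kinases or the cell cycle. In the brain these targets are commonly read as markers that a cell has met stress hormone, and RU-486 is commonly used to ask whether a change needs the receptor. The comparison of DEX with control therefore asks which of the targets responded to the agonist, and that of DEX + RU-486 with DEX asks whether the antagonist lowered them.

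The promoters of the members were read from RefSeq (GRCm38.p6, from 250 bases before to 50 after each start, 19 promoters of the 9 members other than Zbtb16), and 4 of them are shown, namely those with the full receptor element or the cyclic AMP response element and the promoter of Per1 with an E-box. Bases annotated as exon are left out. Capitals mark the motifs: the palindromic glucocorticoid response element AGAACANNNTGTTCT, the cyclic AMP response element TGACGTCA and the E-box CACGTG, each searched on both strands.
Sgk1, chr10:21993640-21993889, plus strand: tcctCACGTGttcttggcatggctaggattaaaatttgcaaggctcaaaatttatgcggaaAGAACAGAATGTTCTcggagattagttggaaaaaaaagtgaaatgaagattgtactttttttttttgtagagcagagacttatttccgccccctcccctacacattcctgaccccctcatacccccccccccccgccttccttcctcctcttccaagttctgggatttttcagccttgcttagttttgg
Dusp1, chr17:26508520-26508722, minus strand: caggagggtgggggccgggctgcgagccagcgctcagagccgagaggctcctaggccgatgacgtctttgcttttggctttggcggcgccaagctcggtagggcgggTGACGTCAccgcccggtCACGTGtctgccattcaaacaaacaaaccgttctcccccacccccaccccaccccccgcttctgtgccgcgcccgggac
Per1, chr11:69098699-69098947, plus strand: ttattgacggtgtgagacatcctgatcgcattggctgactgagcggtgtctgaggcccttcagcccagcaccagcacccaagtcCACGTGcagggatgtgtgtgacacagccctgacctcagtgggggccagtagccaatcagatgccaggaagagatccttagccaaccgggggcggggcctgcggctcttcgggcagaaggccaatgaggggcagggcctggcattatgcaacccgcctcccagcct
Errfi1, chr4:150854820-150855069, plus strand: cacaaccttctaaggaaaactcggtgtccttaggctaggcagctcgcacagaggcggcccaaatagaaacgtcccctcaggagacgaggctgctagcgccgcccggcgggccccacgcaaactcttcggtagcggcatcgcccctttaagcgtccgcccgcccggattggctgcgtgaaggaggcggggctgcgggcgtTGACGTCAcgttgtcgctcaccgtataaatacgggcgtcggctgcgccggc
The full glucocorticoid response element was found in 1 of the 19 promoters, 189 bases before a start of Sgk1, and in 0.00913% of the 32851 mouse promoters. The shorter letters AGAACA, which the full element contains, occurred in promoters of Sgk1, Sult1a1 and Tsc22d3, and in 19% of all promoters. The cyclic AMP response element lay 143 bases before the start of Dusp1 and 51 before that of Errfi1, and occurred in 1.79% of all promoters. The E-box, the element through which the circadian clock drives Per1, lay 166 bases before a start of Per1 and was also present at Dusp1, Fkbp5 and Sgk1, against 7.15% of all promoters. A window without a motif says only that these letters are not in it.

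The RNA integrity number (RIN), which runs from degraded to intact RNA, split the libraries before any comparison. RIN was 6 or above in 28 libraries (10 control, 9 DEX and 9 DEX + RU-486), between 1.4 and 2.7 in 6 libraries of batch 2 (2 of each group), and 3.9 and 5.6 in DEX library 12 and DEX + RU-486 library 18 of batch 1. The labels describe poly(A) selection, which depends on intact transcripts, whereas the paper describes total RNA libraries. Library totals ran from 12133485 to 82437454 counts. In batch 1 the intact libraries also differed by group, with RIN 7.8 to 9.2 and 24200944 to 82437454 counts in control, RIN 6.2 to 7.8 and 12133485 to 15135027 counts in DEX, and RIN 6.6 to 7.9 and 17354341 to 26729341 counts in DEX + RU-486. In batch 2 the intact libraries had RIN 7.4 to 8 in control, 7.4 to 7.7 in DEX and 7.6 to 8.7 in DEX + RU-486. Within the intact libraries of batch 1, control library 1, DEX library 7 and DEX + RU-486 library 13 had the lowest RIN of their groups (7.8, 6.2 and 6.6) and stood above the others for several members, so the results are also given without these 3. All 6 neuronal markers were counted in every library, from 35.6 to 8111 CPM (counts scaled to a common library total), so the defining markers of neurons were present.

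In the 10 intact control libraries the members spanned a wide range of levels per kilobase of exon. Cdkn1a (9.62 ± 2.04 CPM per kb, SD, n = 10) and Per1 (8.20 ± 2.39) were the most abundant. Dusp1 (3.53 ± 1.18), Errfi1 (2.99 ± 0.753), Sgk1 (2.86 ± 0.353) and Tsc22d3 (2.71 ± 1.24) followed, and then Klf9 (1.84 ± 0.986), Fkbp5 (1.70 ± 0.257), Zbtb16 (0.944 ± 0.334) and Sult1a1 (0.189 ± 0.124). Among neighbours in this order, the within-library difference was larger than its SD only between Per1 and Dusp1, Fkbp5 and Zbtb16, and Zbtb16 and Sult1a1. The order pools 2 batches whose control levels differed. Tsc22d3 was at 1.30 to 2.94 CPM per kb in batch 1 and 3.38 to 4.38 in batch 2. Klf9 was at 1.41 to 4.51 and 1.12 to 1.39. The receptor itself, Nr3c1, was at 1.59 ± 0.563 CPM per kb, and the related mineralocorticoid receptor Nr3c2, which also binds glucocorticoids, was at 1.47 ± 0.678.

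**Figure D1:**
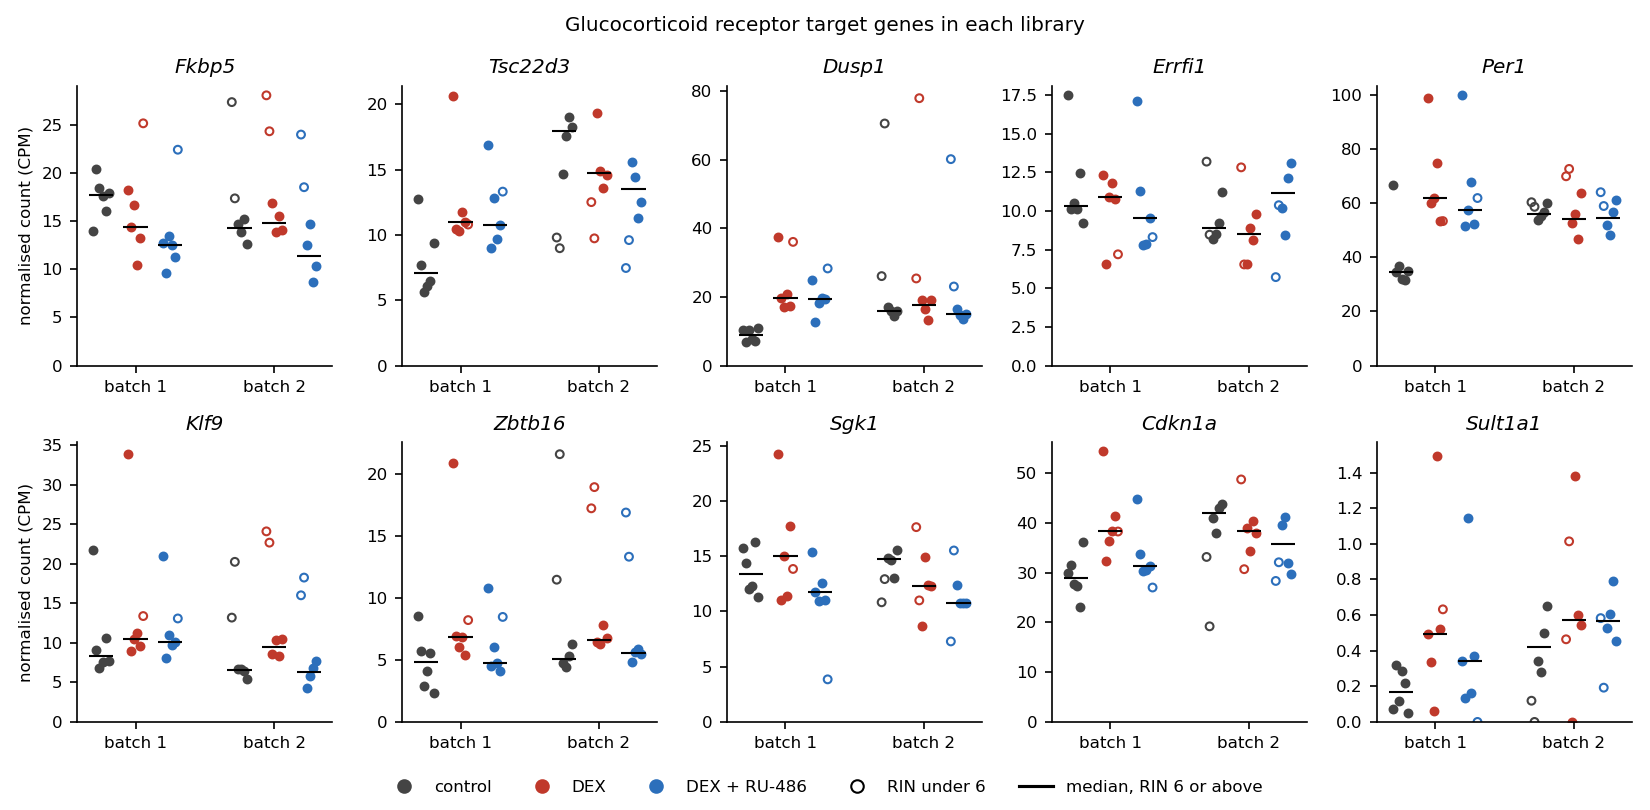
Normalised count (CPM) of each of the 10 genes in all 36 libraries, by batch and group, with open circles for libraries of RIN under 6 and a bar for the median of the libraries of RIN 6 or above. In batch 1 every intact DEX library lies above every control library for Dusp1, whereas the open circles of batch 2 lie above the intact libraries for Dusp1, Klf9, Zbtb16 and Fkbp5 in all 3 groups.

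With all 36 libraries and the batch as a covariate, no member was called in any comparison. None of the 10 was called for DEX against control, that is, had an adjusted p (Benjamini-Hochberg, over every gene tested) below 0.05 in edgeR's quasi-likelihood test, where 0.0147% of tested genes were called higher and 0.00983% lower. Before adjustment, at p under 0.05, 4 members were higher in DEX (Per1, Dusp1, Cdkn1a and Sult1a1) and none lower, beside 6.86% and 10.1% of tested genes. Leaving out the degraded control library 20 alone brought Per1 (log2 0.44, adjusted p = 0.0464) and Dusp1 (1.09, adjusted p = 0.0138) past the threshold. The median log2 fold change was 0.33 over the members, 9 of which had a positive value, and -0.01 over all tested genes. No gene of the table was called for DEX + RU-486 against control or against DEX (0% each). At an unadjusted p under 0.05, Per1 was higher in DEX + RU-486 than in control (4.19% of tested genes higher, 6.63% lower), and Sgk1 and Cdkn1a were lower with the antagonist than with DEX alone (1.44% higher, 1.23% lower). DESeq2 on the same libraries also called no member in any of the 3 comparisons, where it called 1.15% of genes higher and 1.1% lower for DEX, 0.231% and 0.364% for DEX + RU-486 against control, and 0% and 0.00984% for DEX + RU-486 against DEX.

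**Figure D2:**
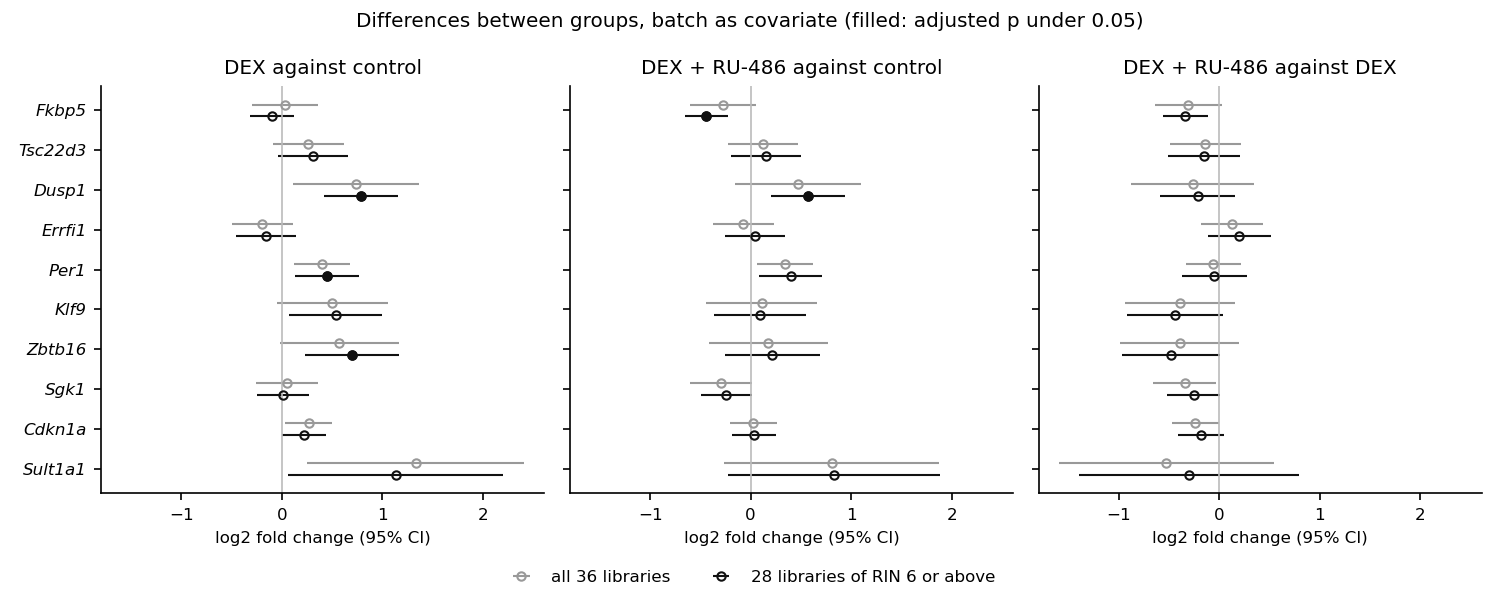
Log2 fold change with its 95% confidence interval for each gene in the 3 comparisons, from all 36 libraries (grey) and from the 28 libraries of RIN 6 or above (black), with filled points at an adjusted p under 0.05. Filled points appear only in the 28 libraries: Dusp1, Per1 and Zbtb16 to the right for DEX, and Dusp1 to the right and Fkbp5 to the left for DEX + RU-486 against control.

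Without the libraries of RIN under 6, 3 of the 10 members were higher in DEX than in control, namely Dusp1, Zbtb16 and Per1, and none was lower. Among all tested genes, 7.83% were called higher and 11.9% lower in this fit. The median log2 fold change was 0.38 over the members, 8 of them positive, and 0.01 over all tested genes. DEX + RU-486 differed from control for 2 members, with Dusp1 higher and Fkbp5 lower, where 2.99% of tested genes were called higher and 5.87% lower. No member, and 0% of tested genes, were called for DEX + RU-486 against DEX. Without libraries 1, 7 and 13, Klf9 joined the 3 called members for DEX (8.11% of genes higher, 10.7% lower), and the same 2 members were called for DEX + RU-486 against control (2.84% higher, 5.31% lower). The batches gave different calls. Fitted alone, the intact libraries of batch 1 gave 4 members higher in DEX (Dusp1, Per1, Tsc22d3 and Cdkn1a, where 9.26% of genes were higher and 9.72% lower), whereas the 12 intact libraries of batch 2 gave none in any comparison (edgeR). With the 2 libraries of lower RIN kept, batch 1 gave the same 4 members for DEX (8.99% of genes higher, 9.99% lower), and Dusp1 and Per1 higher for DEX + RU-486 against control (6.92% higher, 8.46% lower). For DEX + RU-486 against control, batch 1 gave 2 higher (Dusp1 and Per1) and 1 lower (Fkbp5), where 6.36% of genes were higher and 7.1% lower. In batch 2, 0.329% of tested genes were called higher and 0.236% lower in DEX, and 0% and 0.00491% in DEX + RU-486 against control. Before adjustment, Klf9 and Zbtb16 had p under 0.05 for DEX in batch 2, beside 8.58% of genes higher and 8.61% lower, and DESeq2 called Klf9 there, with 2.45% of genes higher and 2.55% lower. Without libraries 1, 7 and 13, batch 1 gave the same 4 members higher in DEX and Fkbp5 lower (9.94% of genes higher, 13.8% lower). For DEX + RU-486 against control it then gave Dusp1, Per1 and Tsc22d3 higher and Fkbp5 lower (7.11% higher, 11.2% lower).

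Dusp1, Tsc22d3 and Errfi1 act as brakes on signalling. Dusp1 (chr17:26505590-26562128, minus strand) encodes a phosphatase that switches off MAP kinases and is itself an immediate early gene. In batch 1 its level ranged from 6.86 to 10.8 CPM (median 9.05) in the 6 control libraries, and was 37.6, 19.8, 17.2, 20.9 and 17.4 CPM in the 5 intact DEX libraries. With DEX + RU-486 the 5 libraries had 24.9, 12.6, 18.4, 19.7 and 19.6 CPM. Both treated groups therefore lay wholly above the control libraries, as did 4.29% of tested genes for DEX and 2.44% for DEX + RU-486. In batch 2 the control libraries had 17, 16.1, 14.5 and 16 CPM, the DEX libraries 19, 16.4, 13.4 and 19, and the DEX + RU-486 libraries 16.5, 14.9, 13.5 and 15. These 3 groups overlapped, and all lay near the treated libraries of batch 1 rather than its controls. The fitted rise in batch 1 was 2.63-fold for DEX (log2 1.40, SE 0.206, adjusted p = 0.000234) and 2.21-fold for DEX + RU-486 (log2 1.14, SE 0.204, adjusted p = 0.00204). Over the 28 libraries it was 1.73-fold for DEX (log2 0.79, SE 0.181, adjusted p = 0.00266) and 1.49-fold for DEX + RU-486 (log2 0.57, SE 0.180, adjusted p = 0.0415), and leaving out any of 11 single libraries took the second of these to between 0.0506 and 0.0969. With RIN as a covariate, Dusp1 was called in neither comparison, in batch 1 or over the 28 libraries. For DEX, 1.95% and 0.0197% of genes were then called higher. Exons of Dusp1 overlap those of Ergic1 on the other strand, and the counting is not stated to use strand. Ergic1 was at log2 -0.37 for DEX over the 28 libraries (adjusted p = 0.00406). Whether its reads add to the counts of Dusp1 was not tested.

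Tsc22d3 (chrX:140539528-140600659, minus strand) encodes GILZ, a leucine zipper protein that holds back NF-kB and AP-1 and is among the most used reporters of receptor activity. In batch 1 the control libraries ranged from 5.63 to 12.7 CPM (median 7.07), the DEX libraries had 20.7, 10.5, 10.3, 11.8 and 11 CPM, and the DEX + RU-486 libraries had 16.9, 9.01, 12.8, 9.67 and 10.8 CPM. Control library 1 lay inside the range of both treated groups, control library 6 (9.41 CPM) lay above the lowest DEX + RU-486 library, and the other 4 controls were below every treated library. The batch 2 controls had 14.7, 17.6, 19 and 18.3 CPM, DEX had 19.3, 14.9, 13.6 and 14.6, and DEX + RU-486 had 15.6, 14.5, 11.3 and 12.6. There the controls were not the low group. Tsc22d3 rose 1.66-fold with DEX in batch 1 (log2 0.73, SE 0.228, adjusted p = 0.0292), a call lost without DEX library 7 (log2 0.47, adjusted p = 0.121) and without any 1 of control libraries 2 to 5 (adjusted p = 0.0572 to 0.0679), but kept without libraries 1, 7 and 13 together (0.65, adjusted p = 0.00532). For DEX + RU-486 it was at 0.60 in batch 1 (adjusted p = 0.0807), and was called without these 3 libraries (0.59, adjusted p = 0.0125), without control library 1 (0.79, adjusted p = 0.0194) or without DEX library 7 (0.58, adjusted p = 0.0495). With RIN as a covariate the batch 1 value for DEX turned to -0.28 (adjusted p = 0.483). In batch 2 its log2 difference was -0.14 for DEX (95% interval -0.43 to 0.14) and -0.36 for DEX + RU-486 (95% interval -0.65 to -0.07, unadjusted p = 0.0187, adjusted p = 0.588, edgeR). Errfi1 (chr4:150853919-150868892, plus strand), which encodes an inhibitor of the EGF receptor, was called in none of these fits. Its intact libraries ranged from 8.21 to 17.5 CPM in control, 6.56 to 12.3 in DEX and 7.83 to 17.1 in DEX + RU-486, and its log2 difference for DEX over the 28 libraries was -0.16 (95% interval -0.46 to 0.14).

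Per1, Klf9 and Zbtb16 encode transcriptional regulators. Per1 (chr11:69095217-69109960, plus strand) is a repressor in the core circadian clock that glucocorticoids reset. Controls of batch 1 ranged from 31.5 to 66.6 CPM (median 34.6), the DEX libraries had 98.6, 59.9, 61.8, 74.8 and 53.3 CPM, and the DEX + RU-486 libraries had 99.8, 51.4, 57.5, 67.8 and 52.2 CPM. Control library 1 held the 66.6, and the other 5 controls, at 31.5 to 37.0, were below every treated library. Among the batch 2 libraries, controls had 53.7, 55.3, 56.7 and 60.2 CPM, DEX had 52.7, 55.8, 46.7 and 63.6, and DEX + RU-486 had 52, 48, 56.7 and 61.2, so that the groups overlapped throughout. Per1 rose 1.84-fold with DEX in batch 1 (log2 0.88, SE 0.206, adjusted p = 0.00545) and 1.72-fold with DEX + RU-486 (log2 0.78, SE 0.206, adjusted p = 0.0163, and 0.0641 without library 13). With RIN as a covariate these batch 1 values turned to -0.12 and -0.10 (adjusted p = 0.706 and 0.753). The rise with DEX over the 28 libraries was 1.37-fold (log2 0.45, SE 0.155, adjusted p = 0.0382), and leaving out any of 8 single libraries took the adjusted p to between 0.0512 and 0.0849. Its log2 difference in batch 2 was -0.03 (95% interval -0.24 to 0.17), an interval below the batch 1 value, which has its own SE. The difference between the batches was tested by the interaction of group and batch. For DEX, Per1 was not called there over the 28 libraries, but was called without libraries 1, 7 and 13.

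Klf9 (chr19:23141226-23168134, plus strand) encodes a Krüppel-like factor induced by glucocorticoid and thyroid hormone in neurons. It was the member whose batch 2 values separated most plainly by treatment: 6.68, 6.67, 6.43 and 5.4 CPM in control, 8.63, 10.3, 8.31 and 10.4 in DEX, and 4.28, 5.79, 6.77 and 7.65 in DEX + RU-486. Every DEX library was above every control and above every DEX + RU-486 library, while DEX + RU-486 and control overlapped. The same holds for 4.47% of tested genes for DEX above control and 3.93% for DEX + RU-486 below DEX. The log2 fold change was 0.60 for DEX against control (1.51-fold, SE 0.172, adjusted p = 0.104) and -0.62 for DEX + RU-486 against DEX (SE 0.173, adjusted p = 0.0685), which miss the threshold in edgeR and pass it in DESeq2 (adjusted p = 0.0220 and 0.0120, the latter beside 3.63% of genes called higher and 3.8% lower). Batch 1 controls ranged from 6.81 to 21.7 CPM (median 8.39), DEX had 33.9, 8.93, 10.5, 11.3 and 9.59 CPM, and DEX + RU-486 had 21, 8.09, 11, 9.75 and 10.1 CPM. The 3 high values there are control library 1, DEX library 7 and DEX + RU-486 library 13. Klf9 was at log2 0.53 for DEX over the 28 libraries (SE 0.226, adjusted p = 0.0934), and without these 3 libraries at 0.46 (SE 0.119, adjusted p = 0.00811). Leaving out 1 library at a time moved it from 0.29 (without DEX library 7) to 0.75 (without control library 1, adjusted p = 0.0137, the single case that was called).

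Zbtb16 (chr9:48654297-48836222, minus strand) encodes PLZF, a zinc finger repressor that is strongly induced by glucocorticoids in many cell types. In batch 2 the controls had 4.78, 4.44, 5.34 and 6.27 CPM, DEX had 6.43, 6.31, 7.84 and 6.77, and DEX + RU-486 had 4.84, 5.63, 5.86 and 5.47. The DEX libraries again lay above both other groups, although the lowest DEX and the highest control library were only 6.31 and 6.27 CPM. As for Klf9, 4.47% of tested genes lay likewise for DEX above control and 3.93% for DEX + RU-486 below DEX. Batch 1 controls ranged from 2.3 to 8.54 CPM (median 4.82), DEX had 20.9, 6.9, 6.02, 6.86 and 5.41 CPM, and DEX + RU-486 had 10.8, 4.54, 6.08, 4.71 and 4.08 CPM. DEX library 7 held the 20.9. Zbtb16 rose 1.62-fold with DEX over the 28 libraries (log2 0.70, SE 0.232, adjusted p = 0.0314). Without library 7 alone the log2 fold change was 0.42 (adjusted p = 0.123), without control library 3 or 6 the adjusted p was 0.0571 or 0.0591, and without libraries 1, 7 and 13 it was 0.53 (adjusted p = 0.0107). With RIN as a covariate over the 28 libraries Zbtb16 was not called, where 0.0197% of genes were called higher. For DEX + RU-486 against DEX it was -0.48 (SE 0.240, adjusted p = 0.561) over the 28 libraries, -0.61 in batch 1 and -0.33 in batch 2, none of them called.

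**Figure D3:**
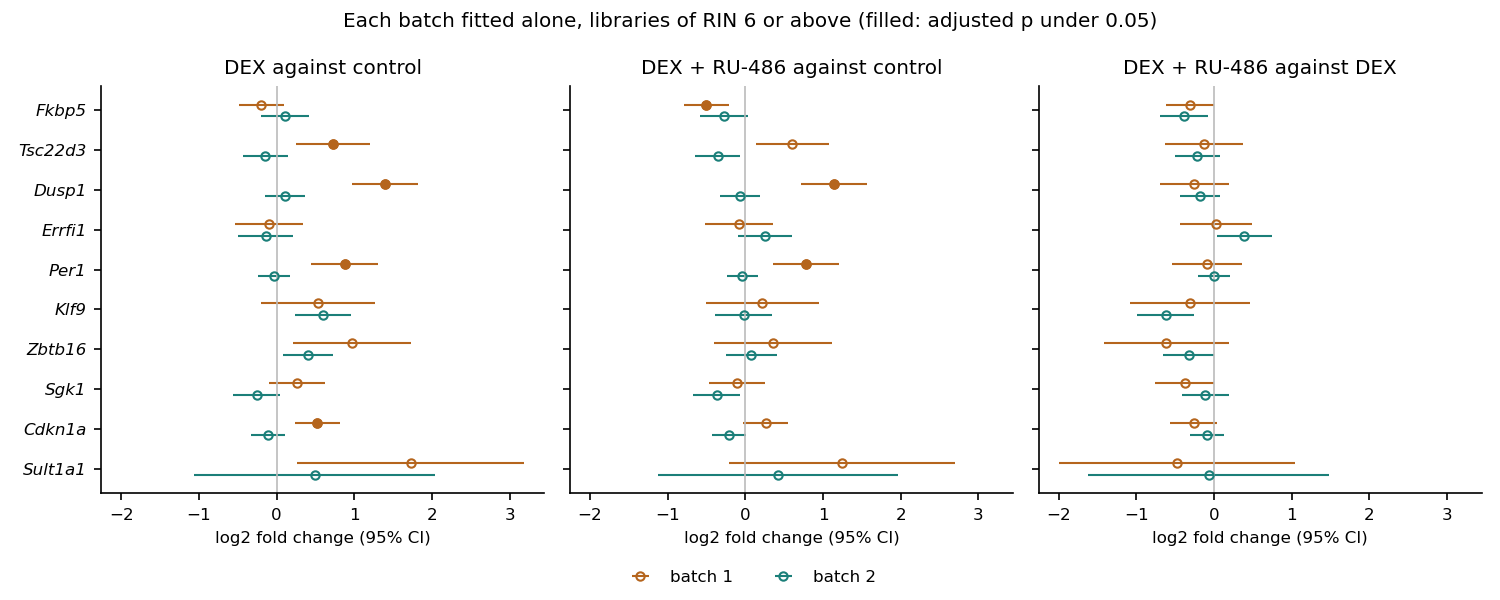
Log2 fold change with its 95% confidence interval for each gene in the 3 comparisons, with the libraries of RIN 6 or above of batch 1 and batch 2 fitted apart and filled points at an adjusted p under 0.05. Batch 1 has filled points for Dusp1, Per1, Tsc22d3 and Cdkn1a under DEX and for Dusp1, Per1 and Fkbp5 under DEX + RU-486 against control, whereas batch 2 has none.

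Fkbp5 (chr17:28399094-28517527, minus strand) encodes the immunophilin FKBP51, which binds the receptor complex and lowers its affinity for hormone, closing a feedback loop. For DEX it was called neither over the 28 libraries nor in either batch, but without libraries 1, 7 and 13 it was called lower in batch 1 (log2 -0.37, SE 0.135, adjusted p = 0.0490), as were 13.8% of tested genes. In batch 1 the controls ranged from 14 to 20.4 CPM (median 17.7), DEX had 18.3, 14.4, 16.7, 10.5 and 13.3 CPM, and DEX + RU-486 had 12.7, 9.64, 13.4, 12.5 and 11.3 CPM. Every DEX + RU-486 library was below every control, as for 5.6% of tested genes. Control libraries of batch 2 had 14.7, 13.9, 15.2 and 12.6 CPM, DEX had 16.8, 13.9, 15.6 and 14.1, and DEX + RU-486 had 12.5, 14.7, 8.67 and 10.3. The DEX + RU-486 group was again the lowest on average, with 1 library inside the range of the others. Over the 28 libraries Fkbp5 fell by 0.44 on the log2 scale with DEX + RU-486 against control (SE 0.106, adjusted p = 0.00982), by 0.50 in batch 1 (adjusted p = 0.0227, and 0.0503 and 0.0627 without DEX + RU-486 library 14 or control library 2) and, uncalled, by 0.28 in batch 2 (adjusted p = 0.700). The log2 difference of DEX + RU-486 from DEX was -0.34 (SE 0.110, adjusted p = 0.405), and that of DEX from control was -0.10 (95% interval -0.32 to 0.12).

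Sgk1, Cdkn1a and Sult1a1 are a kinase that regulates ion channels and sodium transport, the cyclin-dependent kinase inhibitor p21, and a phenol sulfotransferase. Sgk1 (chr10:21882184-21999903, plus strand), the member with the full receptor element in a promoter, was not called in any of these comparisons. Its controls ranged from 11.3 to 16.3 CPM in batch 1 (median 13.3), with 24.3, 11, 15, 11.4 and 17.7 CPM in DEX and 15.3, 11.7, 10.9, 12.6 and 11.1 CPM in DEX + RU-486. Batch 2 had control values of 14.9, 14.7, 13 and 15.5 CPM, DEX had 8.69, 14.9, 12.4 and 12.3, and DEX + RU-486 had 12.4, 10.8, 10.7 and 10.8. The DEX + RU-486 libraries of batch 2 lay below all 4 controls, as for 4.11% of tested genes (log2 -0.37, SE 0.142, adjusted p = 0.591). The difference of DEX from control over the 28 libraries was 0.01 on the log2 scale (95% interval -0.24 to 0.27).

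Cdkn1a (chr17:29090976-29100727, plus strand) ranged in batch 1 from 23 to 36.2 CPM in control (median 28.8), with 54.5, 32.3, 36.4, 38.4 and 41.5 CPM in DEX and 44.9, 33.7, 30.4, 30.5 and 31.3 CPM in DEX + RU-486. It rose 1.44-fold with DEX in that batch (log2 0.52, SE 0.139, adjusted p = 0.0118). With RIN as a covariate that call was lost, where 1.95% of genes were called higher. Its exons overlap those of AC167363.2 on the other strand, so reads of that entry could count toward it. The controls of batch 2 had 41.1, 38, 42.9 and 43.9 CPM, DEX had 38.9, 34.4, 40.4 and 38, and DEX + RU-486 had 39.6, 41.3, 32 and 29.7. There the DEX and control libraries overlapped (log2 -0.11, 95% interval -0.33 to 0.10). Sult1a1 (chr7:126672865-126676432, minus strand) was counted 0 to 38 times per library, at no more than 1.5 CPM, and its exons overlap those of Sgf29 on the other strand. Its log2 fold change for DEX over the 28 libraries was 1.13 with an interval of 0.06 to 2.20 (adjusted p = 0.130), and leaving out 1 library moved the value to between 0.73 and 1.33. It was called without DEX library 27 (1.33, adjusted p = 0.0373) and, in batch 1, without DEX library 9 (2.01, adjusted p = 0.0488), so the calls of this barely counted gene depend on single libraries.

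In DEX + RU-486 most members lay between the DEX and control values or below both, but no difference from DEX was called. Over the 28 libraries, 9 of the 10 fitted values in DEX + RU-486 were below those of DEX, with a median of -0.24 against 0.01 over all tested genes, and Errfi1 was the exception at 0.20 (95% interval -0.11 to 0.51). Before adjustment, 5.16% of tested genes had p under 0.05 and a higher value and 3.76% a lower one, Fkbp5 being the member among the latter. For the members that rose with DEX in batch 1, the log2 difference of DEX + RU-486 from DEX there was -0.25 for Dusp1 (95% interval -0.70 to 0.19), -0.09 for Per1 (-0.54 to 0.35), -0.13 for Tsc22d3 (-0.63 to 0.37) and -0.26 for Cdkn1a (-0.56 to 0.04). The intervals leave out neither equal levels nor a partial return toward control, and that of Cdkn1a also holds a full return. Without DEX library 7 alone, the values of Dusp1 (0.00), Per1 (0.06) and Tsc22d3 (0.11) were no longer below 0, and over all single libraries left out Cdkn1a stayed between -0.39 and -0.13. Without libraries 1, 7 and 13 together, all 10 members were below 0 in batch 1 (median -0.19). None of them was called, where 0.0295% of genes were called lower. With all intact libraries of batch 1, no gene was called in this comparison (edgeR). Before adjustment, 2.36% of genes were higher and 3.48% lower there, and no member was among them. For batch 2 the calls, relative to DEX alone, were 0.747% of tested genes higher and 0.811% lower, and none of the members was among them. Because the 3 comparisons share libraries, their values are not independent of one another.

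Whether the batches differed was tested directly with the interaction of group and batch. Over the 28 libraries, the effect on Dusp1 was smaller in batch 2 than in batch 1 by 1.23 on the log2 scale for DEX (SE 0.272, adjusted p = 0.0101) and by 1.17 for DEX + RU-486 (SE 0.271, adjusted p = 0.0224). It was the only member called, and 3.18% of tested genes were called with a larger and 1.07% with a smaller value in batch 2 for DEX, and 1.27% and 0.639% for DEX + RU-486. Per1 was at -0.85 (adjusted p = 0.0688), Tsc22d3 at -0.82 (adjusted p = 0.123) and Cdkn1a at -0.58 (adjusted p = 0.0809) for DEX. Without libraries 1, 7 and 13, Dusp1, Per1 and Tsc22d3 were all called, for DEX at -1.07, -0.95 and -0.80, where 4.92% of genes were called with a larger and 2.74% with a smaller value in batch 2. For DEX + RU-486 the same 3 were called at -1.14, -0.83 and -0.97 (2.05% and 1.45% of genes). With all 36 libraries none was called, against 0.133% of genes higher and 0.0393% lower for DEX and 0.0393% and 0.0442% for DEX + RU-486 (Dusp1 -1.38, SE 0.569, adjusted p = 0.288). For Klf9 the batches differed by 0.12 (SE 0.470, adjusted p = 0.933), and for Zbtb16 by -0.51 (SE 0.473, adjusted p = 0.626), neither called.

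For 4 members the untreated levels also differed between the batches. Among the intact libraries, the controls of batch 2 were higher than those of batch 1 for Tsc22d3 (log2 1.10, SE 0.205, adjusted p = 0.000155), Dusp1 (0.82, SE 0.186, adjusted p = 0.00120), Per1 (0.50, SE 0.186, adjusted p = 0.0391) and Cdkn1a (0.48, SE 0.132, adjusted p = 0.00590). These are the 4 members called higher in DEX in batch 1, and the calls share the control libraries of batch 1. In this contrast 14.2% of tested genes were called higher and 18.9% lower. No member was called between the batches in DEX or in DEX + RU-486, where 14.2% of tested genes were called in each direction in DEX, and 4.91% higher and 5.46% lower in DEX + RU-486.

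RNA integrity moved with the members as well as with the groups. In batch 2 the 6 libraries of RIN under 3, compared with the 12 intact ones with the group as a covariate, were higher for Dusp1 (log2 1.54, SE 0.203), Zbtb16 (1.49, SE 0.126), Klf9 (1.38, SE 0.122), Fkbp5 (0.76, SE 0.117) and Per1 (0.19, SE 0.0817), with adjusted p between 3.71e-09 and 0.0492. Tsc22d3 was lower by 0.69 (SE 0.122, adjusted p = 6.04e-05), and Sgk1 (-0.01) and Errfi1 (-0.00) were near 0. Cdkn1a and Sult1a1 were also below 0, neither called. Cdkn1a was lower at an unadjusted p under 0.05, as were 5858 of the 20355 tested genes. In all, 28.4% of tested genes were higher and 26.8% lower in these libraries. Dusp1, for example, was at 26.1 and 70.6 CPM in the degraded controls, 25.4 and 78 in DEX and 60.2 and 23.1 in DEX + RU-486, against 13.4 to 19 CPM in the intact libraries. Within the 28 intact libraries, adding RIN to the fit left no member called for DEX, where 0.0197% of genes were called higher and 0.0737% lower: Dusp1 was at log2 0.19 (adjusted p = 0.451), Zbtb16 at 0.21 (adjusted p = 0.724) and Per1 at -0.00 (adjusted p = 0.997). Fkbp5 was still lower in DEX + RU-486 than in control in that fit (-0.47, SE 0.120, adjusted p = 0.0390), as were 1.1% of tested genes. In batch 1 alone, adding RIN left no member called higher. Klf9 was then called lower for DEX (log2 -1.10, adjusted p = 0.0481), beside 1.95% of genes higher and 5.56% lower, and Klf9 and Fkbp5 for DEX + RU-486, beside 1.59% and 4.27%. In that batch every DEX library of RIN 6 or above had a RIN no higher than that of any control, so RIN and treatment cannot be told apart there, and the part of RIN in the changes of the members was not tested beyond these fits.

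**Figure D4:**
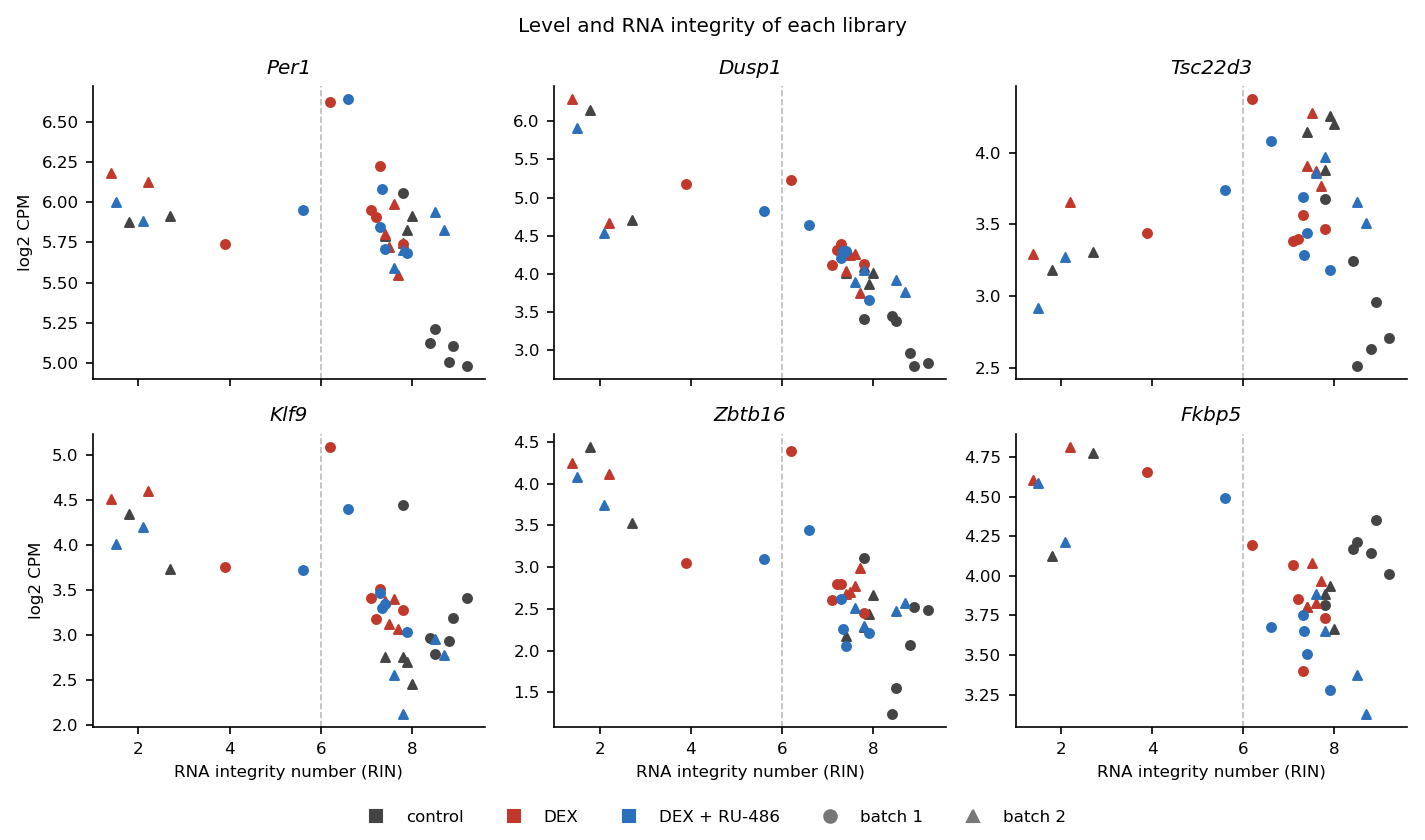
Log2 CPM of 6 members against the RNA integrity number of each of the 36 libraries, coloured by group, with circles for batch 1 and triangles for batch 2 and a dashed line at RIN 6. The 5 controls of batch 1 with the highest RIN (8.4 to 9.2) have the lowest Per1 values of all libraries, and the libraries of RIN under 3 have high Dusp1, Klf9 and Zbtb16 in all 3 groups.

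Cell type markers moved beside the members. In the 28 libraries 5 of 6 neuronal markers were lower in DEX than in control, 5 of 6 of the oligodendrocyte lineage and 4 of 6 of astrocytes were higher, and none of the 3 tested microglial markers was called, beside 7.83% of the tested genes called higher and 11.9% lower. The summed level of the 6 oligodendrocyte lineage markers in batch 1 was 59.5 to 275 CPM in control, 463 to 747 in DEX and 213 to 624.6 in DEX + RU-486. In batch 2 it was 391 to 510 CPM in control, 634 to 1018 in DEX and 130 to 380 in DEX + RU-486, so that, as for Klf9 and Zbtb16, the DEX libraries stood above both other groups. Astrocyte markers summed to 16.2 to 22 CPM in control, 23.3 to 36.9 in DEX and 16.8 to 22.2 in DEX + RU-486 of batch 2, and in batch 1 to 11.8 to 19.8, 17.1 to 27.4 and 16.7 to 38.8 CPM, where the groups overlapped. Neuronal markers in batch 1 summed to 3338 to 4284 CPM in control, 2498 to 3368 in DEX and 2693 to 3459 in DEX + RU-486, and in batch 2 to 2434 to 2709, 2346 to 2618 and 2445 to 2668 CPM, with overlap between the groups in both batches. Microglial markers summed to between 0.173 and 6.79 CPM in the intact libraries, and Tmem119 was at 0 in 22 of the 36 libraries. Of the remaining marker lists, 1 of 4 of dividing cells (Cdk1) was higher in DEX, and none of the endothelial, meningeal fibroblast or interneuron markers was called over the 28 libraries. With RIN as a covariate no marker of any list was called for DEX. In such bulk samples, more cells of a type and more RNA per cell cannot be told apart, and the part of these markers in the changes of the members was not tested.

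Around the members, the genes that carry the hormone signal were described from lists. Of the 10 genes of the receptor complex, none was higher and 2 were lower in DEX over the 28 libraries (median log2 -0.17), beside 7.83% of the tested genes called higher and 11.9% lower. They were the heat shock protein Hspa8 (log2 -0.42, adjusted p = 0.000236) and the co-chaperone Stip1 (-0.25, adjusted p = 0.00513). With RU-486 added, 3 were lower than in control, Hspa8, Stip1 and Hsp90aa1 (-0.32, adjusted p = 0.0308), beside 5.87% of tested genes, and Nr3c1 was called in neither comparison (-0.24 for DEX, adjusted p = 0.226). Of 12 receptor cofactors, 5 were lower in DEX and none higher (median -0.17), among them Tbl1xr1 (-0.36, adjusted p = 0.00807), Ncoa1 (-0.31, adjusted p = 0.00161), Nrip1 (-0.33, adjusted p = 0.0130) and Med1 (-0.17, adjusted p = 0.0492). In batch 2 alone, where 0.329% of all tested genes were called higher and 0.236% lower in DEX, none of these 22 genes was called. With all 36 libraries no gene of any list was called.

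The next group holds genes with the same known direction as the members. Of 30 other genes known to be induced by glucocorticoids, 28 were tested, and 4 were higher and 1 lower in DEX (median 0.28), beside 7.83% and 11.9% of all tested genes. Klf15, a metabolic transcription factor, rose with DEX (log2 0.88, adjusted p = 0.00890) and with DEX + RU-486 (0.81, adjusted p = 0.0281), and Nfkbia, the inhibitor of NF-kB, rose with DEX (0.39, adjusted p = 0.0233). Ehd3, an endocytic recycling protein, fell with both (-0.34, adjusted p = 0.00264, and -0.31, adjusted p = 0.0126). Glul, the glutamine synthetase of astrocytes, was at -0.05 for DEX and was lower in DEX + RU-486 than in control (-0.41, adjusted p = 0.00449). In batch 1 alone 7 of the 28 were higher and 1 lower in DEX (9.26% and 9.72% of all tested genes), and in batch 2 none was called (0.329% and 0.236%). Only 2 of 12 genes known to be repressed by glucocorticoids passed the filter, and 1 of them, the prostaglandin synthase Ptgs2, was higher in DEX (log2 2.56, adjusted p = 0.0401).

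Of 19 paralogs of the members, 17 were tested, and 3 were higher and 1 lower in DEX over the 28 libraries, beside the same 7.83% and 11.9% of all tested genes. Per2, the partner of Per1 in the clock, rose with DEX (log2 0.55, adjusted p = 0.00715) and with DEX + RU-486 (0.86, adjusted p = 0.00111). Tsc22d4 rose with DEX (0.68, adjusted p = 0.00219) and in batch 2 fell when RU-486 was present beside DEX (-0.76 against DEX alone, adjusted p = 0.0303), while Tsc22d1 fell (-0.28, adjusted p = 0.00113). Dusp5, a phosphatase of ERK, rose with DEX (0.60, adjusted p = 0.0300). Of 10 targets of p53, which also drives Cdkn1a, 2 were higher and none lower in DEX against that background, Eda2r (1.38, adjusted p = 0.0328) and Mdm2 (0.18, adjusted p = 0.0484), and Sesn2 was higher in DEX + RU-486 than in control (0.80, adjusted p = 0.0445).

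The 10 immediate early genes, which neuronal activity, growth factors and stress switch on and to which Dusp1 also belongs, were all higher in DEX over the 28 libraries (median log2 1.18), as were 7.83% of all tested genes. Jun (1.29, adjusted p = 0.000530), Egr1 (1.27, adjusted p = 0.00654), Arc (1.60, adjusted p = 0.00544) and Fos (1.27, adjusted p = 0.0341) are examples. With DEX + RU-486, 3 of the 10 were higher than in control (2.99% of all tested genes). All 10 were called in DEX in batch 1 (median 1.86, with 9.26% of all tested genes higher), against a median of 0.63 for the receptor targets there. In batch 2 none was called, all 10 had positive values (median 0.47, beside 0.04 for the receptor targets), and 4 were lower with RU-486 than with DEX alone (0.811% of all tested genes), among them Egr1 (-0.77, adjusted p = 0.0176) and Jun (-0.70, adjusted p = 0.0196). The median over all tested genes was 0.07 in batch 1 and 0.01 in batch 2.

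Calls of these lists changed with RIN in the fit and with the libraries used. With RIN as a covariate in the 28 libraries, no gene of any list, immediate early genes included (median log2 0.34), was called for DEX, where 0.0197% of tested genes were higher and 0.0737% lower. For DEX + RU-486 against control, Per2 and Ier2 were then higher and Hspa8, Stip1 and Glul lower (0.648% of tested genes higher, 1.1% lower). Without libraries 1, 7 and 13, all 10 immediate early genes were higher in DEX (8.11% of tested genes), and 6 of them in DEX + RU-486 (2.84%). The other induced genes then had 10 higher and 1 lower in DEX, and of the genes named above Med1, Dusp5, Eda2r and Ptgs2 lost their call for DEX and Hsp90aa1 for DEX + RU-486.

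**Figure D5:**
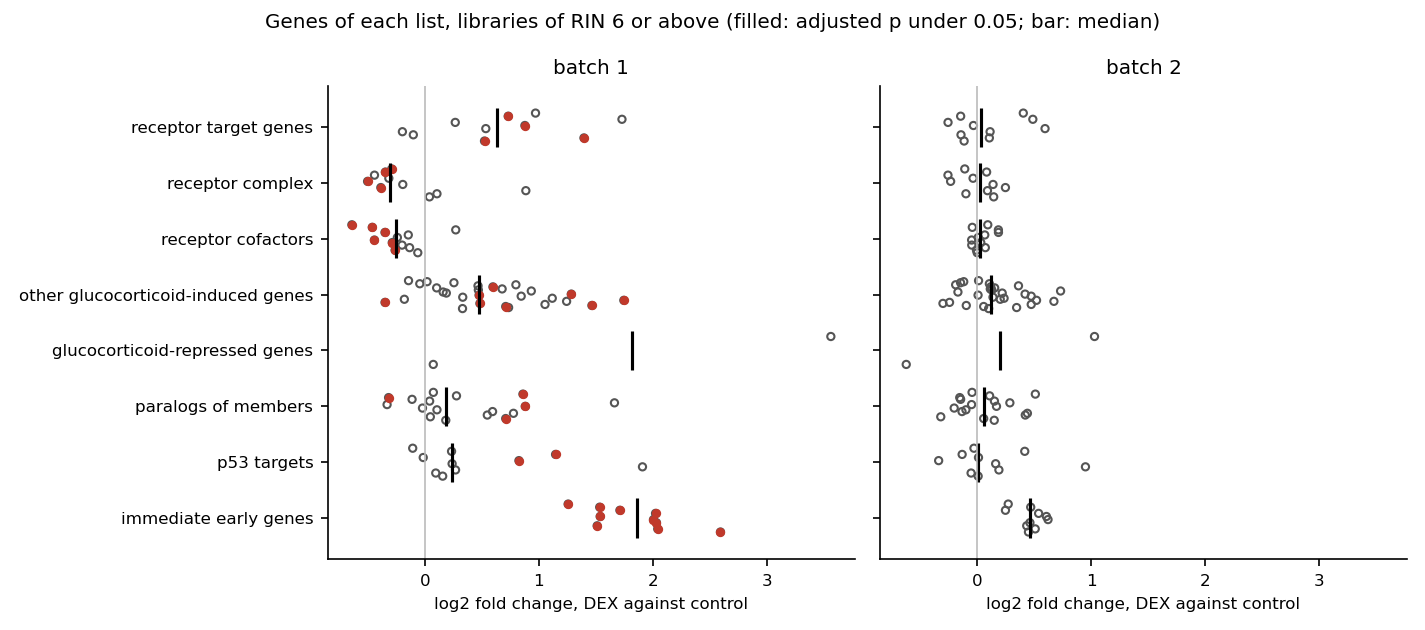
Log2 fold change for DEX against control of each tested gene of the 8 lists, in the libraries of RIN 6 or above of batch 1 (left) and batch 2 (right), with filled points at an adjusted p under 0.05 and a bar at the median of the list. In batch 1 the immediate early genes lie furthest to the right among the lists with 10 or more tested genes, with a median of 1.86, and in batch 2 no point is filled.

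Across the 28 intact libraries, centred within batch, the genes outside the list whose log2 CPM followed the mean of the members most closely were Scg2, a secretory granule protein (Pearson r = 0.92), Etl4 (r = 0.91), the nuclear receptor Nr4a2 (r = 0.90), Gadd45g (r = 0.90) and the cyclic AMP regulated factor Crem (r = 0.89). Gadd45g is also in the list of other induced genes. Between members the closest pairs were Per1 and Dusp1 (r = 0.86), Zbtb16 and Klf9 (r = 0.84) and Tsc22d3 and Per1 (r = 0.81). These correlations over 28 libraries are descriptions, and the libraries share group, RIN and depth differences. They include libraries 1, 7 and 13, which hold the highest intact values of Klf9 and of Zbtb16, and were not computed without them.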

How the data were processed

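Whole-number read counts per gene in 36 libraries were deposited by the authors, whose processing notes name HISAT2 2.1.0, Subread 1.5.0-p2 and GRCm38. The annotation and the strand setting of the counting are not given in the sources used here. Each of the 36 columns was mapped to its labelled sample, no column was left unmapped, and no pair of libraries held identical counts. Of 55492 entries, 55227 matched GENCODE M21 by identifier. Genes with a mean count above 5 (20355) were fitted in edgeR 4.0.16 (R 4.3.3) with TMM normalisation and the quasi-likelihood test. One model held the 3 groups and the batch, the Benjamini-Hochberg adjustment ran over all tested genes, and a gene was called below 0.05. SEs are the log2 fold change divided by the square root of F, and intervals cover 95%. Fits by batch, of libraries of RIN 6 or above and of the interaction were made in the same way. Scripts were tested on simulated data. DESeq2 1.42.0, other scalings and filters, RIN as a covariate and each library left out in turn were tried. Leaving out libraries 1, 7 and 13, and all alternatives within the RIN and batch subsets, were chosen after seeing the data. The members and the gene lists were chosen with earlier results of these data known. All members are named, with up to 4 genes of each list, those of smallest p over the 3 comparisons of 36 libraries among those called there or at RIN 6 or above, or the 1 of smallest p where none was called. Other genes named (markers, and genes whose exons overlap a member) carry a result of the text.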

Additional observations from a re-analysis of the deposited data

Results flagged for a closer look

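In 11 of the 60 cells of gene, batch and group with 4 to 6 intact libraries, 1 library stood apart from the others by Dixon's ratio, which chance does in about 1 in 20 groups. DEX library 7 of batch 1 (RIN 6.2) was high for Dusp1 (37.6 CPM, against 17.2 to 20.9 in the other 4), Klf9 (33.9, against 8.93 to 11.3), Zbtb16 (20.9, against 5.41 to 6.90) and Tsc22d3 (20.7, against 10.3 to 11.8). Control library 1 of batch 1 (RIN 7.8) was high for Per1 (66.6 CPM, against 31.5 to 37.0 in the other 5) and Klf9 (21.7, against 6.81 to 10.6). DEX + RU-486 library 13 of batch 1 (RIN 6.6) was high for Klf9 (21 CPM, against 8.09 to 11 in the other 4) and Cdkn1a (44.9, against 30.4 to 33.7). DEX library 8 was low for Errfi1 (6.56 CPM, against 10.8 to 12.3), DEX + RU-486 library 15 was high for the barely counted Sult1a1 (1.14 CPM, against 0.132 to 0.371), and DEX + RU-486 library 33 of batch 2 was high for Sgk1 (12.4 CPM, against 10.7 to 10.8).

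The effect on Dusp1 differed between the batches in the intact libraries, by -1.23 on the log2 scale for DEX (SE 0.272, adjusted p = 0.0101) and by -1.17 for DEX + RU-486 (SE 0.271, adjusted p = 0.0224), in an edgeR interaction test. Both tests use the same control libraries, so they are not separate evidence.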

How the results depend on the processing

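No paired analysis was made, because the labels number the libraries from 1 to 36 and name no pairs or blocks. The order within groups does show a shared pattern. Libraries 1, 7 and 13 each come first in their group of batch 1. The libraries of RIN under 3 in batch 2 come first in theirs (19 and 20 in control, 25 and 26 in DEX, 31 and 32 in DEX + RU-486). Whether this order marks libraries prepared together is not stated, and a block by order was not tested. With 36 libraries no member was called, and the counts of members called moved with the libraries used. For DEX, the members called higher were 4 in batch 1 alone (8.99% of genes higher), 3 at RIN 6 or above (7.83%), 4 in batch 1 at RIN 6 or above (9.26%), and 0 to 2 with 1 of the 36 libraries left out. For DEX + RU-486 against control they were 2, 1 and 2 higher (6.92%, 2.99% and 6.36% of genes), and 1 lower in each of the 2 subsets at RIN 6 or above (5.87% and 7.1%). Within the 28 libraries, RIN as a covariate gave 0 members higher for either comparison with control, and leaving out 1 library gave 1 to 4 higher for DEX and 0 to 1 higher for DEX + RU-486. Within batch 1 at RIN 6 or above, RIN as a covariate gave 0 higher and 1 lower for DEX and 0 higher and 2 lower for DEX + RU-486, beside 5.56% and 4.27% of genes lower. There, leaving out libraries 1, 7 and 13 gave 1 lower (Fkbp5) for DEX, beside 13.8% of genes, and leaving out 1 library gave 1 to 3 higher and 0 to 1 lower for DEX + RU-486. In batch 2 at RIN 6 or above, DESeq2 called 1 member higher for DEX and 1 lower for DEX + RU-486 against DEX, both Klf9, beside 2.45% of genes higher and 3.8% lower. For the fits with 1 library left out, the share of all tested genes called is not given here. Those counts therefore describe the members only and cannot be set against all genes. The cause of these changes was not tested.

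Signs of called values turned in batch 2 at RIN 6 or above, where Per1, Tsc22d3 and Cdkn1a for DEX were below 0, uncalled. Dusp1 for DEX + RU-486 was there at -0.12 to -0.03 with 1 library left out. Within the 28 libraries and within batch 1, signs of called values turned only when RIN was added as a covariate. Per1 went to -0.0017 for DEX in the 28 libraries. In batch 1 at RIN 6 or above, Tsc22d3 went to -0.28, Per1 to -0.12 and Klf9 to -1.10 for DEX, and Per1 to -0.10 and Klf9 to -1.14 for DEX + RU-486, the Klf9 values being called (adjusted p = 0.0481 and 0.0318). The batch difference, uncalled with 36 libraries, was called at RIN 6 or above for Dusp1 (-1.23 for DEX, -1.17 for DEX + RU-486). Without libraries 1, 7 and 13 it was called for Tsc22d3, Per1 and Dusp1 (-0.80, -0.95 and -1.07 for DEX, -0.97, -0.83 and -1.14 for DEX + RU-486). Depth limits Sult1a1, at 0 to 38 counts per library.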
